A study of Mus musculus with 16 samples.

Results

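The promoters of 4 repressors of the circadian clock, the cryptochromes Cry1 and Cry2 and the basic helix-loop-helix factors Bhlhe40 and Bhlhe41, were followed by Promoter Capture Hi-C (P-CHi-C) through a day in mouse liver. A promoter was represented by its bait, the HindIII fragment that holds the start of the gene. The 4 baits were chosen by gene name from the 18165 baits with a listed interaction. Captured fragments without any listed interaction are not among these. The 4 baits took part in 185 of the 247177 distinct interactions. Livers came from wild type male C57BL/6 mice fed ad libitum. By the paper's account the mice were 8 weeks old when they entered 2 weeks of alternating 12 h light and 12 h dark phases. Livers were collected at zeitgeber time (ZT, hours after lights on) 0, 6, 12 (lights off) and 18. Each timepoint had 3 pools of 2 livers, with pool A sequenced on 2 lanes, which makes 16 samples. The pools of a timepoint were merged before interactions were called, so there was 1 list per timepoint, no replicate error and no test, and every difference between timepoints below is a description of these 4 lists. The assay reads DNA from whole liver and measures no RNA, so the tissue label could not be checked against marker genes and cell types could not be told apart.

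From ZT0 to ZT18 the lists held 146262, 154775, 151529 and 151347 interactions. Each value in them is a CHiCAGO score, which rises as the reads joining a pair of fragments exceed the number expected from their distance and from technical noise. The lists start at a score of 5, so a pair missing at a timepoint scored under 5 there and was not measured as 0. A bait with a listed interaction had a median of 9 distinct contacts over the day, with quartiles at 4 and 21. The median score over all listings was 6.99.

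In the mammalian clock, CLOCK and BMAL1 bind E-box elements and switch on the genes of their own repressors. CRY1 and CRY2 act with the PER proteins to block CLOCK-BMAL1 directly. BHLHE40 and BHLHE41, also called DEC1 and DEC2, bind E-boxes themselves and compete for them.

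The 250 bases before each gene start are shown because they lie within each bait and because the E-box family is the element through which these genes are known to be controlled. They were read from mm9 on the strand of the gene, 5′ to 3′, with capitals marking the E-box CACGTG and its variants CACGCG and CATGTG in either orientation. No annotated exon overlaps any of them.
Cry1 promoter, chr10:84647800-84648049, minus strand: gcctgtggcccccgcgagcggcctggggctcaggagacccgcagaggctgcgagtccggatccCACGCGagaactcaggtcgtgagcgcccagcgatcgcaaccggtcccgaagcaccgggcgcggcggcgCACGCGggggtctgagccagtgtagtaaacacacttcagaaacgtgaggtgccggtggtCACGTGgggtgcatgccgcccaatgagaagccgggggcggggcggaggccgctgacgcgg
Cry2 promoter, chr2:92274201-92274450, minus strand: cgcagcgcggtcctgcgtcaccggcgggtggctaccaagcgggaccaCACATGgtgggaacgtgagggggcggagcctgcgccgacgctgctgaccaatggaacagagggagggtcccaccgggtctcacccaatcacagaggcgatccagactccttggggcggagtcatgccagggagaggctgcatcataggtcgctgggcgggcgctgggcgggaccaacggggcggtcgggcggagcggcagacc
Bhlhe40 promoter, chr6:108610373-108610622, plus strand: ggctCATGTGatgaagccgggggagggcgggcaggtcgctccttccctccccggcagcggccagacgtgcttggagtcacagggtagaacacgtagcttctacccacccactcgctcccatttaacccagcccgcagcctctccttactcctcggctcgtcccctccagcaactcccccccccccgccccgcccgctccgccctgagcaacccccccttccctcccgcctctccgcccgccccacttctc
Bhlhe41 promoter, chr6:145814079-145814328, minus strand: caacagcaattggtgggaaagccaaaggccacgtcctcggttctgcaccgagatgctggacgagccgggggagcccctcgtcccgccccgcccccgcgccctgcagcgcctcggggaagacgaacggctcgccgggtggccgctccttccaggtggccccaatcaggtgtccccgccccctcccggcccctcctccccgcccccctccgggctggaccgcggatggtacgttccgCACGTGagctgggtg
The E-box CACGTG occurred once in the Cry1 and once in the Bhlhe41 window, and 6.51% of 22380 protein-coding gene-start windows of the same length held it. The Cry1 window also held the variant CACGCG at 2 places, a variant present in 9.49% of windows. The Cry2 and Bhlhe40 windows each held 1 copy of CATGTG, which 10.5% of windows held, in Cry2 on the opposite strand and so printed as CACATG. None of the 4 windows held the D-boxes TTATGTAA and TTACGTAA, the cyclic AMP response element TGACGTCA or the ROR and REV-ERB core motif AGGTCA, searched on both strands. A match is a description of the letters, and no match says nothing of a factor.

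The promoters differed widely in their contacts. The Bhlhe40 bait had 149 distinct contacts over the 4 lists, Bhlhe41 had 19, Cry2 had 14 and Cry1 had 3. Of all baits, 14 had more contacts than Bhlhe40, whereas 4811 had more than Bhlhe41, 6440 more than Cry2 and 13824 more than Cry1. The length of the bait did not follow this order: the Bhlhe40 bait measured 2994 bp, Cry2 1022 bp, Cry1 10863 bp and Bhlhe41 11877 bp, beside a median of 5861 bp over all baits. A relation of bait length to the number of contacts was not tested.

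**Figure D1:**
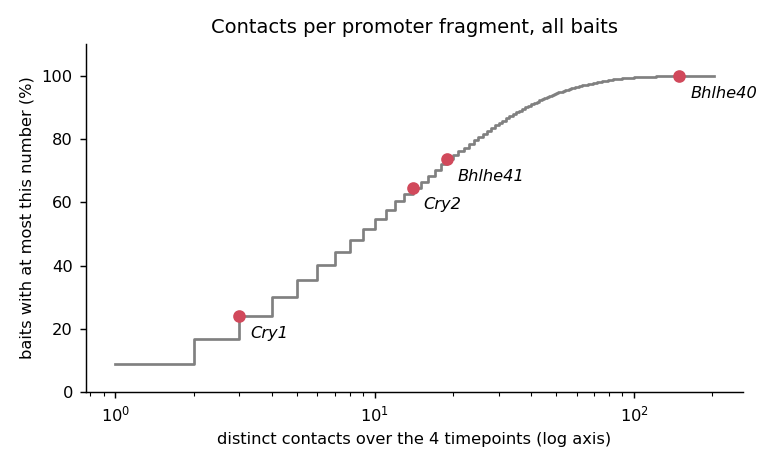
Cumulative share of the 18165 baits with a listed interaction (y axis, %). The x axis (log scale) gives their number of distinct contacts over the 4 timepoints, and red points mark the 4 repressor promoters. Cry1 with 3 contacts lies low on the curve, Cry2 with 14 and Bhlhe41 with 19 lie in its middle, and Bhlhe40 with 149 lies at its top.

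They differed in constancy as well. At Bhlhe40, 80 of 149 contacts were listed at all 4 timepoints, which is 53.7% with a 95% Wilson interval of 45.7 to 61.5% that covers counting error only. Over all interactions that share was 32.5%. At Cry2 it was 4 of 14 (28.6%, 11.7 to 54.6%), at Bhlhe41 1 of 19 (5.26%, 0.935 to 24.6%) and at Cry1 0 of 3 (0 to 56.1%). Contacts of 1 bait are neighbours on the chromosome and not independent, so the true intervals are wider. Contacts listed at 1 timepoint only made up 35.2% of all interactions, against 25 of 149 (16.8%) at Bhlhe40, 6 of 14 (42.9%) at Cry2 and 13 of 19 (68.4%) at Bhlhe41. All 3 contacts of Cry1 were of this kind.

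The timepoint with the most contacts differed between the promoters. Cry2 had 5, 12, 7 and 7 contacts at ZT0, ZT6, ZT12 and ZT18, and Cry1 had 1, 2, 0 and 0. At the minimum score of 5 both were highest at ZT6, as were 21.7% of all baits. With a minimum of 7 the Cry2 numbers were 2, 4, 2 and 5, highest at ZT18, with a minimum of 10 they were 1, 2, 2 and 2, and Cry1 had none at either, so the place of ZT6 rests on scores near the minimum. Bhlhe40 had 108, 106, 128 and 113 contacts and was highest at ZT12, as were 17.9% of baits. Bhlhe41 had 14, 4, 8 and 3 and was highest at ZT0, as were 14.6% of baits. These timepoints follow the sample labels. The study's own overview gives the same list totals in another order, with those of ZT6, ZT12 and ZT18 exchanged, and read that way the values of Cry2 would read 5, 7, 7 and 12, those of Cry1 1, 0, 0 and 2, those of Bhlhe40 108, 128, 113 and 106, and those of Bhlhe41 14, 8, 3 and 4.

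**Figure D2:**
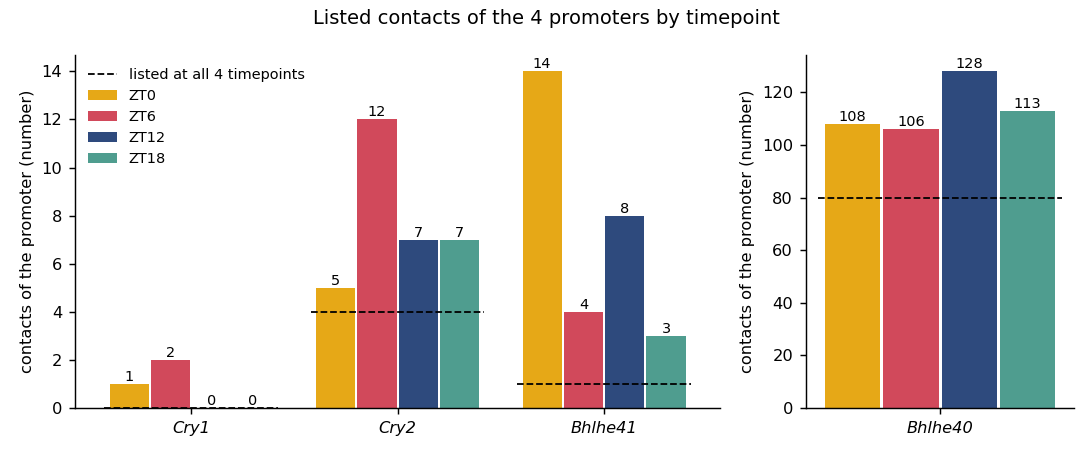
Number of listed contacts (y axis) of the 4 promoters at ZT0, ZT6, ZT12 and ZT18 (bars), with the number listed at all 4 timepoints as a dashed line. The right panel has its own scale, since Bhlhe40 ranged from 106 to 128 contacts and the other promoters from 0 to 14.

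Cry1 (ENSMUSG00000020038) lies on the minus strand of chromosome 10 at 84594447 to 84647799, and its bait spans 84645761 to 84656623. The only contact at ZT0, with a score of 5.04, was the fragment holding the start of Btbd11, 195 kb upstream of Cry1. At ZT6 the scores were 6.61 for a fragment in an intron of Btbd11, 447 kb away, and 5.81 for the fragment holding the start of Pwp1, a WD repeat protein with a role in ribosome production, 684 kb away. No interaction of Cry1 reached the lists at ZT12 or ZT18. All contacts lay upstream, and they took 3 of the 202 HindIII fragments in the span they covered. A score of 7 was reached by none of them, so their presence or absence turns on values close to the minimum.

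The Cry1 neighbourhood was not empty of contacts. Of 19 other baits within 1000 kb, 12 had more contacts than Cry1, with a range from 2 to 42 and a median of 5. The Btbd11 promoter shared 1 contacted fragment with Cry1, as did the promoters of D10Wsu52e and of Prdm4, a zinc finger factor, which is 33.3% of the contacts of Cry1 and 14.3, 50 and 33.3% of theirs.

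Cry2 (ENSMUSG00000068742) lies on the minus strand of chromosome 2 at 92243803 to 92274200, with a bait of 1022 bp at 92273704 to 92274725. All 14 of its contacts lay beyond the end of the gene, between 33.5 and 241 kb away with a median of 71.3 kb, whereas the median over all interactions was 162 kb. Of the 4 contacts listed throughout, 3 were fragments that hold the starts of its neighbours. The start fragment of Gyltl1b, a glycosyltransferase, scored 9.0, 10.47, 11.80 and 10.28 at ZT0, ZT6, ZT12 and ZT18, and that of Pex16, a factor in building the peroxisome membrane, scored 10.24, 9.07, 10.53 and 10.85. The start fragment of 1700029I15Rik, which also overlaps Mapk8ip1, a scaffold of JNK signalling, scored 6.82, 8.68, 6.96 and 7.21.

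The remaining contact present at all 4 timepoints lay farther off, 137 kb away in an intron of Phf21a, a histone reader of the LSD1 complex, at 92136796 to 92138055. Its scores were 6.32, 10.70, 6.68 and 7.05, so it stood higher at ZT6 than at the others. The fragments on either side of it were listed at ZT6 alone, with scores of 5.93 and 5.66. Of the 6 Cry2 contacts seen at a single timepoint, 5 were at ZT6, among them the start fragment of Mapk8ip1 at 6.33. The start of the microRNA gene Mir1955, inside Phf21a and 241 kb away, scored 6.22, 6.05 and 5.68 at ZT0, ZT6 and ZT12 and was missing at ZT18.

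A fragment of 163 bases between Gyltl1b and Pex16 was listed at ZT12 with a score of 5.11 and at ZT18 with 7.36. It is printed whole because it joins the fragments of both constant neighbours into a single stretch of contacts. It overlaps no gene and holds none of the motifs searched.
Cry2 contact, chr2:92213485-92213647, plus strand: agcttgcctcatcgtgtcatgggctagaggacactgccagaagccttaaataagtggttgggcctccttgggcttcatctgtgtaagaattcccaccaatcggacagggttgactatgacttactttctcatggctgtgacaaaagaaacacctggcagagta
The other end was itself a bait in 5 of the 14 Cry2 contacts (35.7%), whereas 15.4% of all interactions joined 2 baits. For Bhlhe40 this held for 5 of 149 (3.36%), for Cry1 for 2 of 3 and for Bhlhe41 for none of 19. The promoter that shared most contacted fragments with Cry2 was that of Slc35c1, a GDP-fucose transporter: 4 fragments, which are 28.6% of the contacts of Cry2 and 80.0% of those of Slc35c1.

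**Figure D3:**
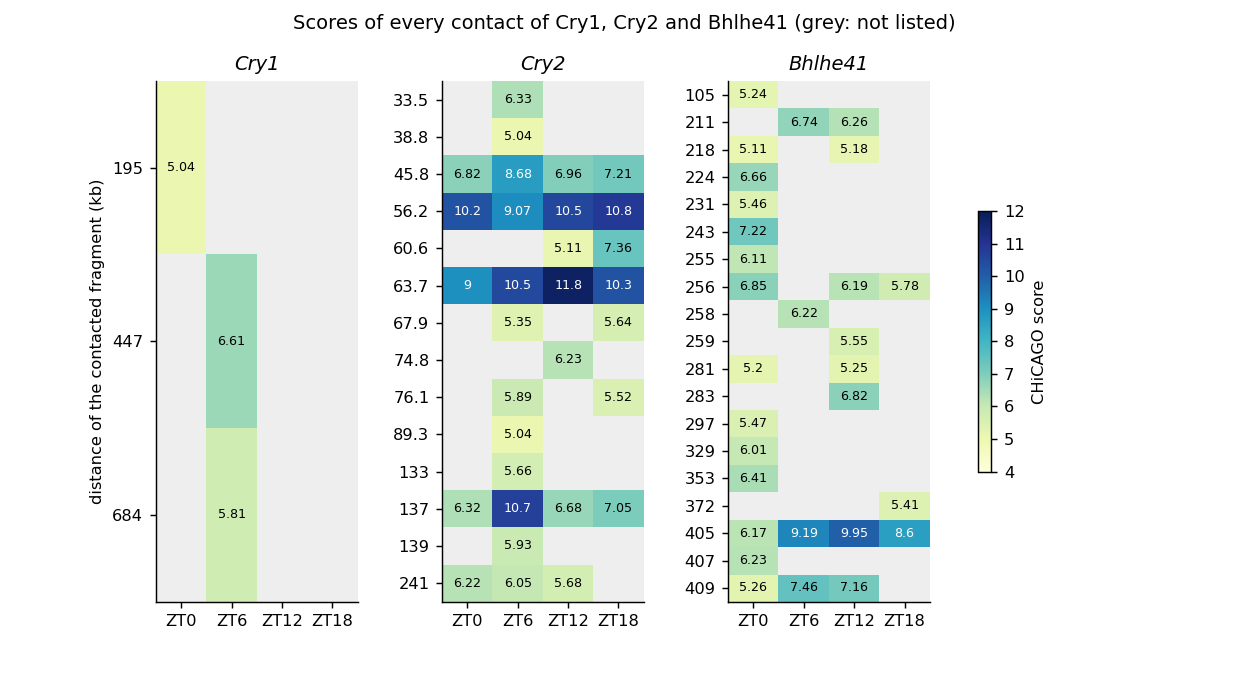
CHiCAGO scores (colour and printed value) of every contact of Cry1, Cry2 and Bhlhe41 at the 4 timepoints, with contacts ordered by their distance from the bait (y axis, kb) and grey where a contact was not listed. Contacts listed throughout are seen at Cry2, at 45.8, 56.2, 63.7 and 137 kb, and at 405 kb in Bhlhe41, and the ZT0 column of Bhlhe41 holds 14 of its 29 entries.

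Bhlhe41 (ENSMUSG00000030256) lies on the minus strand of chromosome 6 at 145806763 to 145814078, with a bait of 11877 bp at 145809941 to 145821817. Its contacts lay upstream without exception, 105 to 409 kb away with a median of 259 kb. Of the 19, 14 (73.7%) lay in Itpr2, which encodes an inositol trisphosphate receptor, a channel that releases calcium from the endoplasmic reticulum. The other 5 were intergenic. Itpr2 is 394 kb long and runs towards Bhlhe41, ending 243 kb from its start, and all 14 fragments lay in the part of Itpr2 nearer to its end than to its start. By timepoint they numbered 10, 3, 6 and 3.

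No Bhlhe41 score reached 10. The single contact listed at all 4 timepoints was an intronic fragment of Itpr2 at 146219713 to 146221192, 405 kb away, with scores of 6.17, 9.19, 9.95 and 8.60, the last 3 of them being the highest Bhlhe41 scores of their timepoints. A fragment close by, at 409 kb, scored 5.26, 7.46 and 7.16 at ZT0, ZT6 and ZT12. Of the contacts seen once, 9 were at ZT0, with scores from 5.24 for a fragment 105 kb away to 7.22 for the one at the end of Itpr2. At a score of at least 7 the numbers at the 4 timepoints were 1, 2, 2 and 1, so the larger number at ZT0 came from scores between 5 and 7.

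The constant fragment holds 1 E-box, shown with 20 bases on either side because Bhlhe41 encodes an E-box binding factor. Over the 19 contacted fragments of Bhlhe41 there were 1.83 E-boxes per 10 kb, over those of Cry2 1.80, over those of Bhlhe40 1.35 and over those of Cry1 1.34, beside 1.41 per 10 kb over all listed fragments.
Itpr2 intron contacted by Bhlhe41, chr6:146219759-146219804, plus strand: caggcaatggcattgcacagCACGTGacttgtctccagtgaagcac
Of the other baits within 1000 kb of Bhlhe41, 4 of 19 had more contacts. Rassf8, a Ras association domain gene, shared 3 contacted fragments with it, 15.8% of the contacts of Bhlhe41 and 15.0% of those of Rassf8.

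Bhlhe40 (ENSMUSG00000030103) lies on the plus strand of chromosome 6 at 108610623 to 108616919, and its bait spans 108608455 to 108611448. The same bait holds the start of an antisense long noncoding RNA gene, 0610040F04Rik, at 108610928, so its contacts cannot be assigned to either gene alone. Contacts reached from 4.33 to 596 kb with a median of 224 kb, 122 of them upstream of Bhlhe40 and 27 downstream. Upstream they covered 122 of the 161 HindIII fragments over 595 kb (75.8%), and downstream 27 of 56 over 181 kb (48.2%). The longest unbroken run, 28 adjacent fragments each listed at all 4 timepoints, extended over 127 kb from 108432485 to 108559340.

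The neighbour that took most of them was Itpr1, the gene of another inositol trisphosphate receptor. Itpr1 is 338 kb long and ends 110 kb upstream of Bhlhe40. Of the 149 contacts, 87 (58.4%) overlapped it, in numbers of 71, 65, 75 and 70 at ZT0, ZT6, ZT12 and ZT18, and 52 of these were listed throughout. Of the 87, 50 lay in the part of Itpr1 nearer to its end than to its start, and of the 52 listed throughout, 48 did. Bhlhe40 and Bhlhe41 both had contacts in the later part of an inositol trisphosphate receptor gene, which in each case is the part closer to the bait. The Bhlhe40 contacts were less confined to it than those of Bhlhe41. Scores rose up to 108.37 at Itpr1 and up to 9.95 at Itpr2.

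The highest Bhlhe40 score of every timepoint lay in Itpr1. A fragment at 108375922 to 108382005, 231 kb away and overlapping an exon of Itpr1, scored 84.41, 81.35, 99.95 and 93.86. A short intronic fragment at 108406819 to 108407382, 203 kb away, scored 35.56, 55.60, 108.37 and 66.94, and its ZT12 value was the highest of the 4 promoters. Over all baits, 14 reached a higher number of contacts than Bhlhe40, but only 1 had more contacts with a mean score of at least 20, of which Bhlhe40 had 42.

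Sequence is shown from this stretch since it carries the strongest scores. The first line is a whole intronic fragment of 260 bases, 205 kb from Bhlhe40, that scored 33.19, 50.85, 84.74 and 60.80 and holds none of the motifs searched. The lines after it are the 4 E-boxes of the fragment at 108375922 to 108382005, in capitals, each with 20 bases on either side and outside annotated exons.
Itpr1 intron fragment, chr6:108405073-108405332, plus strand: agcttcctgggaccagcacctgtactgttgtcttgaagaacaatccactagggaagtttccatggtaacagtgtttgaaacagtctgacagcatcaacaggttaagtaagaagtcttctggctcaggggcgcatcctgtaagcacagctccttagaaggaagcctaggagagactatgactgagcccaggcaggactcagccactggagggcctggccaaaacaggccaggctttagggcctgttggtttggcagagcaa
Itpr1 first E-box, chr6:108378804-108378849, plus strand: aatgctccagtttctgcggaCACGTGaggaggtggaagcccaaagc
Itpr1 next E-box, chr6:108379482-108379527, plus strand: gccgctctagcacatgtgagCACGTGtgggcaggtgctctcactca
Itpr1 following E-box, chr6:108379752-108379797, plus strand: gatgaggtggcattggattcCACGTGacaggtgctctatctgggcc
Itpr1 last E-box, chr6:108380243-108380288, plus strand: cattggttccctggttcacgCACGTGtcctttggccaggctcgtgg
E-boxes occurred in 49 of the 149 contacted fragments, 75 in all, at a density of 1.35 per 10 kb against 1.41 over all listed fragments.

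**Figure D4:**
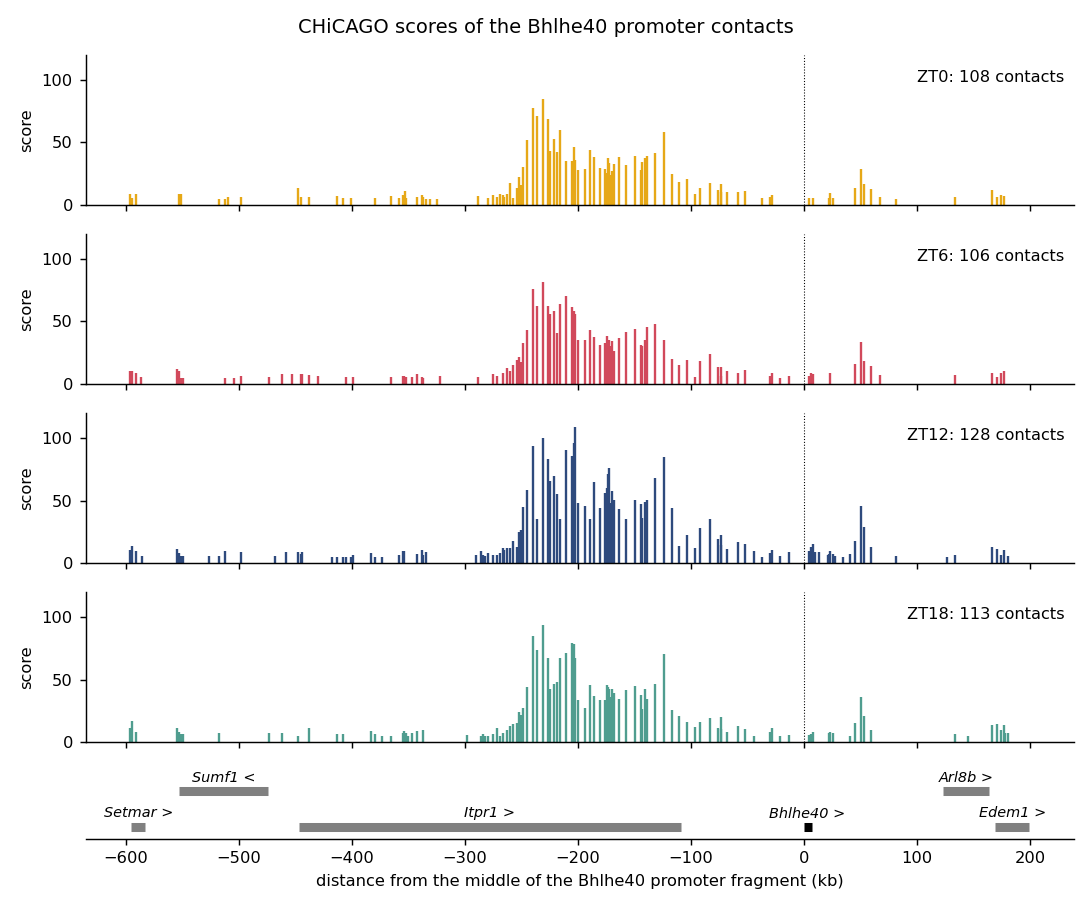
CHiCAGO score (y axis) of each Bhlhe40 contact against the distance of its middle from the middle of the bait (x axis, kb, negative is upstream) at the 4 timepoints, with neighbouring genes and their strand below. The tallest line of every panel lies within Itpr1, 231 kb upstream at ZT0, ZT6 and ZT18 and 203 kb upstream at ZT12, where it reaches 108.37.

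Contacts with other promoters were few and weaker. The start fragment of Setmar, a SET domain methyltransferase gene, scored 9.07, 10.36, 10.72 and 11.44, and that of Edem1, which helps to clear misfolded glycoproteins from the endoplasmic reticulum, 11.62, 9.19, 12.97 and 13.91. The start fragment of Itpr1 itself scored 13.83 at ZT0, was missing at ZT6 and scored 8.97 and 5.30 at ZT12 and ZT18. The start fragment of Sumf1, an enzyme that activates sulfatases, was listed at ZT6 with 5.41 and at ZT18 with 7.63, and that of Arl8b, a small GTPase of lysosome movement, at ZT12 alone with 5.03. The starts of 2 further annotated genes lay on contacted fragments that are not baits: the fragment of Gm16433 scored 13.25, 18.11, 28.03 and 15.91, and that of Gm4604, within Sumf1, scored 5.05 at ZT0, 5.87 at ZT12 and 7.78 at ZT18.

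Downstream of Bhlhe40 a separate group of 18 contacts lay between 108612336 and 108694566. It numbered 11, 9, 17 and 11 at the 4 timepoints, and 5 of its intergenic fragments were listed at ZT12 alone, with scores from 5.12 to 8.70. Its summit, an intergenic fragment 50.2 kb away at 108659335 to 108661003, scored 28.39, 33.56, 45.52 and 36.20. The fragment that covers the end of Bhlhe40 itself, at 108616750 to 108618623, scored 5.54, 8.32, 15.65 and 8.46.

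Among the 80 contacts listed at all 4 timepoints, the score was highest at ZT12 in 56 (70.0%, 59.2 to 78.9%), at ZT18 in 15, at ZT6 in 7 and at ZT0 in 2. Over all interactions listed throughout, the score was highest at ZT12 in 25.6%, at ZT18 in 26.0%, at ZT6 in 26.1% and at ZT0 in 22.0%. The median Bhlhe40 score was 19.4, 19.6, 28.4 and 21.6 at ZT0, ZT6, ZT12 and ZT18, and the median ratio of the ZT12 score to the mean of the other 3 was 1.27, beside 0.997 over all interactions. In the order of lists that the study's overview implies, these scores would belong to ZT6, and ZT12 would be highest in 15 of 80 (18.8%).

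The share highest at ZT12 was larger among the stronger contacts. Of the 42 contacts with a mean score of at least 20, 38 (90.5%) were highest at ZT12, against 24.3% of all such interactions, and of the 38 weaker ones 18 (47.4%) were. The mean includes the ZT12 score itself, so a high score at ZT12 helps a contact to reach 20. The contrast of stronger with weaker contacts is therefore in part fixed by the grouping. Fragments overlapping Itpr1 were highest at ZT12 in 40 of 52 cases (76.9%) and other fragments in 16 of 28 (57.1%). Neighbouring fragments are not independent, and when 1 contact was kept per 25 kb the count was 13 of 19 (68.4%, 46.0 to 84.6%). The contact kept was the one with the highest mean score, a choice that favours the stronger contacts. Sequencing depth per list was not analysed, and its part in these scores was not tested.

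The other promoters of the region that had contacts listed throughout had lower shares at ZT12, each on 17 such contacts or fewer. Edem1, which shared 37 contacted fragments with Bhlhe40 (24.8% of the contacts of Bhlhe40 and 69.8% of those of Edem1), was highest at ZT12 in 4 of its 17 constant contacts. The counts were 3 of 8 for Arl8b, 1 of 5 for Setmar and 0 of 2 for Itpr1, which shared 26 fragments with Bhlhe40, while Sumf1, with 18 shared, had no constant contact. Of 1144 baits with at least 20 constant contacts, 4 had a higher share at ZT12 than Bhlhe40, and the median share was 24.1%.

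**Figure D5:**
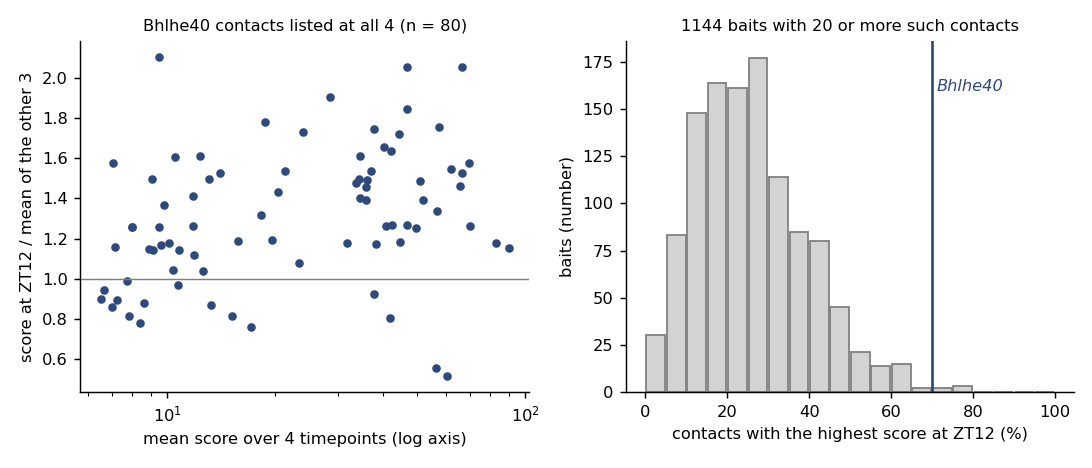
Left, score at ZT12 divided by the mean of the other 3 timepoints (y axis) against the mean score (x axis, log scale) for the 80 Bhlhe40 contacts listed at all 4 timepoints, with a line at equality. Right, number of baits (y axis) by the percent of such contacts with their highest score at ZT12 (x axis), for 1144 baits, with Bhlhe40 marked at 70.0%.

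The exceptions among the strong contacts stood beside fragments that followed the pattern. At 108371135 to 108375921 the scores were 71.03, 62.16, 35.52 and 73.97, and at 108392798 to 108394996 they were 60.01, 63.56, 35.26 and 66.95. At 108420226 to 108420928 they were 43.75, 43.24, 35.57 and 45.39, and at 108448898 to 108455126 they were 32.11, 41.81, 35.60 and 41.54. In each of these 4 the ZT12 score lay between 35 and 36, and the fragments on either side of the first of them, at 231 and 240 kb, scored 99.95 and 93.78 at ZT12. Scores from 34 to 36 also occurred at other timepoints in contacts highest at ZT12. At ZT0 the fragments starting at 108394997, 108403969 and 108406819 scored 35.04, 35.27 and 35.56. At ZT6 the fragment starting at 108484108 scored 34.92. Scores in this range were frequent over the lists together: 574 listings lay between 34 and 35 and 544 between 35 and 36. Between 33 and 34 lay 466, and between 36 and 37 lay 252. By list, the numbers from 33 to 34, 34 to 35, 35 to 36 and 36 to 37 were 153, 214, 171 and 54 at ZT6 and 106, 138, 155 and 67 at ZT12. They were 104, 108, 117 and 56 at ZT0 and 103, 114, 101 and 75 at ZT18, with little or no rise before the drop. The cause of these frequencies was not tested, and without contacts that had any score from 34 to 36 the count highest at ZT12 was 41 of 61 (67.2%).

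Other genes of the clock gave a frame for these numbers. Of a list of 24 clock and clock output genes, 21 had a bait with a listed interaction at their start, with 1 to 115 contacts and a median of 15. The lists cannot tell whether the remaining genes were captured without a listed contact, and these genes are left out of the numbers. Of the 21, none had more contacts than Bhlhe40, 10 had more than Bhlhe41, 12 had more than Cry2, and 6 had at most the 3 contacts of Cry1. The median share of contacts listed throughout was 26.7%, and 3 of the genes had no such contact. By their numbers of contacts over the 4 timepoints, the nearest to Bhlhe40 was Hlf, a PAR bZIP output factor, with 68, 85, 95 and 79, followed at a distance by Nfil3, the bZIP repressor that opposes it, with 35, 38, 42 and 32, and by Nampt, an enzyme of NAD synthesis, with 19, 21, 24 and 21. The summed absolute differences from Bhlhe40 were 128, 308 and 370 contacts. Like Bhlhe40, Hlf, Nfil3 and Nampt had their largest number at ZT12 under the sample labels.

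The same measure placed Cry2 nearest to Nr1d1, the gene of the repressor REV-ERBα, with 6, 10, 9 and 8 contacts, and next to the kinase gene Csnk1e and to Per3, at summed differences of 6, 11 and 14. Bhlhe41 was nearest to Npas2, a partner of BMAL1 that can stand in for CLOCK, with 14, 8, 8 and 12 contacts and a difference of 13, then to Csnk1e and Per3. Cry1 was nearest to Btrc, an F-box gene of the ubiquitin ligase that degrades PER proteins, with 1, 1, 0 and 0 contacts. These likenesses rest on 4 numbers per gene and are descriptions.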

How the data were processed

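P-CHi-C reads were mapped to mm9 and filtered with HiCUP by the authors, and the pools of each timepoint were merged before CHiCAGO was run on them. The lists as deposited hold a CHiCAGO score for every fragment pair that reached 5. Versions of these tools are not given in the sources used here. Depth is unknown from the lists, and the number of reads behind a score was not analysed here.

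Timepoints followed the sample labels. Contacts of a bait were counted whichever end of a pair it was, with python 3.11.15, pandas 2.3.3 and numpy 2.4.6. A bait is a fragment listed first at any timepoint, so captured fragments without a listed interaction were not counted. Distances are between fragment middles. Gene starts, exons and names came from GENCODE vM1 on the same build, and sequences were read from that genome. Of 129887 listed fragments, 129886 matched its HindIII digest. Wilson intervals (scipy 1.17.1) have 95% confidence. Figures were drawn with matplotlib 3.10.9. Counting was tested on simulated data, with all 200 simulated promoters recovered.

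The members, the clock gene list and the rules for named genes were chosen with earlier results of these data known. Named genes are the members, genes whose starts lie on contacted fragments, genes overlapped by constant or top contacts, the 3 promoters sharing most fragments with each member, and the 3 nearest clock genes by contact numbers. One item that these rules would name is not reported here. The settings varied were the score minimum (7 or 10), equal list sizes, baits of all transcript starts, the promoter listed first, a 10 kb tolerance, scaled numbers, the gap between fragments, baits defined by gene starts, and another order of the lists.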

Additional observations from a re-analysis of the deposited data

How the results depend on the processing

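No paired analysis was possible because each timepoint had a single list called on merged pools, and for the same reason no replicate could be left out. The values were recomputed under 112 combinations of result and setting, of which 65 stayed within the limit set for a change (1.5 times for counts) and 47 moved. A reversal of direction was not scored apart from a move. Raising the minimum score leaves fewer contacts by construction. With a minimum of 7, Cry1 had 0 contacts in all, 0 at ZT0 and 0 at ZT6. Cry2 had 5, with 2 at all 4 timepoints and 2, 4, 2 and 5 by timepoint, so that ZT18 and no longer ZT6 was highest, and Bhlhe41 had 3, with 0 at all 4 timepoints and 1, 2, 2 and 1 at the 4 timepoints. At a score of at least 10, Cry1 had 0 contacts in all, 0 at ZT0 and 0 at ZT6. Cry2 had 3, with 0 at all 4 timepoints and 1, 2, 2 and 2 by timepoint, with no single highest. Bhlhe41 had 0 contacts, and so 0 at each timepoint and 0 at all 4. Bhlhe40 had 77, with 52 at all 4 timepoints and 57, 60, 71 and 66 by timepoint, and its contacts that reached 10 had a median distance of 176 kb. Of the 52, 44 (84.6%) scored highest at ZT12.

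Accepting another end within 10 kb raises the number listed at all 4 timepoints by construction, to 12 for Cry2, 141 for Bhlhe40 and 7 for Bhlhe41. With the lists in the order that the study's overview implies, Cry1 had 0 contacts at ZT6 and 2 at ZT18, Cry2 had 7 at ZT6 and 12 at ZT18, Bhlhe41 had 8 at ZT6 and 3 at ZT12, and the share of Bhlhe40 contacts highest at ZT12 was 18.8%. Equal list sizes, scaled numbers, baits of all transcript starts, the promoter listed first, the gap between fragments and baits defined by gene starts moved no value past the limit. The further settings for the ZT12 share of Bhlhe40 were chosen after seeing the data: with every contact, a missing one taken as lowest, 89 of 149 (59.7%) were highest at ZT12, and scores of at least 10, 1 contact per 25 kb and leaving out scores from 34 to 36 gave 67.2 to 84.6%. In the first of these, the 13 contacts listed at ZT12 alone were highest there by construction. Shares over all interactions under these settings are not given here. Division by each timepoint's median score over all interactions listed throughout gave 70.0%. Those medians lay between 8.75 and 8.98, so the division could hardly change a score and is no check of depth. Most Cry1, Cry2 and Bhlhe41 scores lie near the minimum of 5, so their listing at a timepoint is the least certain part of these data.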
